A study of Mus musculus with 2 samples.

Results

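Interferon-regulated genes and the genes of the interferon regulatory factor (IRF) family were described in mouse cells labelled erythroblasts. Erythroblasts still hold a nucleus and mature into red cells. The members were the protein-coding genes of both gene tables whose symbol begins with Ifi, with Oas, with Isg, with Irf and a digit, or with Gbp and a digit, together with Mx1, Rsad2, Bst2 and Adar. They number 69 of 43346 gene rows, or of 21461 named nuclear protein-coding genes. Total RNA of 2 libraries was sequenced, each made from 1 ng of RNA with spike-ins. Per the labels, they are primary cells from males of the strain C57BL/6J, adult, of 5 to 6 weeks, with no transgene, agent or other treatment named. The labels call the libraries biological replicates 1 and 2 and place their biosamples under a single donor entry, without saying whether animals differed. Both form 1 group with no second condition, so the spread between them may be technical and no test between conditions exists.

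Interferons are secreted proteins that warn cells of viral infection. They bind receptors that act through Janus kinases and STAT proteins, and a complex of STAT proteins with IRF9 then binds the interferon-stimulated response element (ISRE) in front of many genes. The products of those genes sense, cut, edit or sequester foreign RNA and DNA, block the entry or exit of viruses, or pass on the signal. In blood formation, interferons act on stem cells and on red cell precursors, and the RNA editing enzyme ADAR1 is needed in mice for normal red cell formation.

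Levels are given as rescaled TPM, the deposited TPM (transcript abundance per length and depth) scaled so that the nuclear protein-coding genes of each library sum to 1000000. These genes held 4.68% of deposited TPM in replicate 1 and 5.10% in replicate 2. Their expected counts, estimated reads per gene, were 4393962 in replicate 1 and 6815842 in replicate 2, of 80806663 and 117032607 in all. A member was called detected at a rescaled TPM of 1 or more in both libraries, which for a 1 kb transcript equals 3.36 counts in replicate 1 and 5.41 counts in replicate 2. A gene without reads may still be present at up to 3 counts, or 0.892 and 0.555 rescaled TPM for 1 kb, for counting error only. The erythroid markers were all detected, 8 of 8, and their rescaled TPM summed to 17200 in replicate 1 and 16262 in replicate 2, led by Slc4a1 (5562 and 5083) and Alas2 (3747 and 3589), with Klf1 lowest (60.5 and 61.4). The neutrophil markers were also all detected, 8 of 8, and summed to 42894 and 45311, with S100a9 (14200 and 16292) and S100a8 (13162 and 14511) highest and Ltf lowest (375 and 353). Their sum exceeded that of the listed erythroid markers in each library. Of the monocyte and macrophage markers 8 of 8 were detected, summing to 1576 and 1809, with Ly6c2 (1324 and 1552) and Ccr2 (82.5 and 73.3) highest and Cd14 lowest (1.71 and 3.14). None of 7 dendritic cell markers was detected, and their sum was 3.64 and 5.88 rescaled TPM. In a bulk sample, fewer cells of a type and less RNA per cell cannot be told apart, and the part that other cell types have in the members' levels was not tested.

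Rsad2 and Isg20 stood far above the other members. Rsad2 encodes viperin, a radical SAM enzyme that turns a nucleotide into a terminator of viral RNA synthesis, and Isg20 encodes an exonuclease that degrades single-stranded RNA. Rsad2 (ENSMUSG00000020641, chr12:26442746-26456452, mm10, minus strand) had 1233 rescaled TPM in replicate 1 and 1196 in replicate 2, from 15042 and 23378 expected counts. Isg20 (ENSMUSG00000039236, chr7:78913424-78920396, plus strand) had 855 rescaled TPM in replicate 1 and 814 in replicate 2, from 2145 and 3241 counts. Their means, 1215 ± 26.2 and 834 ± 29.1 rescaled TPM (SD, n = 2), placed them at ranks 54 and 102 of the nuclear protein-coding genes. Between the means the gap exceeds the spread of either gene. Rsad2 alone held 30.7% and 31.5% of the members' summed level, and both genes together held 52.0% and 53.0%.

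The bases in front of these starts are shown because they differ in the element that interferon signalling uses. The core of the ISRE was searched as GAAA, any 2 bases and GAAA on both strands in the 250 bases before each start, in RefSeq windows on GRCm38.p6. Each window is printed 5′ to 3′ on the strand of its gene. In the Rsad2 window capitals mark the ISRE core, which lies on the opposite strand with 110 bases between it and the start. In the Isg20 window they mark AGATAA, a match to the motif of erythroid GATA factors. Of all RefSeq windows 9.99% held AGATAA and 2.98% held the ISRE core.

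Rsad2, chr12:26456453-26456702: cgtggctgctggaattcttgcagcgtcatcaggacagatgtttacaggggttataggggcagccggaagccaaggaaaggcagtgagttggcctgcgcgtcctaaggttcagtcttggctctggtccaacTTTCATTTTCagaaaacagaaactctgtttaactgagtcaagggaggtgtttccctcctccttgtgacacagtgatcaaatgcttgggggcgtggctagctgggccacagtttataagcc

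Isg20, chr7:78913985-78914234: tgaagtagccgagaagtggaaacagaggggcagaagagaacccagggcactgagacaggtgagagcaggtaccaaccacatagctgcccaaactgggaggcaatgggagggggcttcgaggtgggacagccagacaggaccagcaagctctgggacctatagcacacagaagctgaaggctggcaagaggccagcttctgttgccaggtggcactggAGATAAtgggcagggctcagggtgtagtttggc

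The Rsad2 window held 1 ISRE core and no AGATAA. The Isg20 window, 1 of 3 for this gene and in front of its leading transcript, held no ISRE core. A match is a description of these letters, not a binding site, and no match says nothing of other positions.

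Rsad2 lies beside Cmpk2, a mitochondrial nucleotide kinase that is also induced by interferon, whose span begins 12752 bases past the last position of Rsad2. Cmpk2 (chromosome 12) had 109 rescaled TPM in replicate 1 and 85.1 in replicate 2, from 1119 and 1403 counts. Rsad2 was thus 11.4 times higher than its neighbour in replicate 1 and 14.1 times higher in replicate 2.

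Across all members, 44 of 69 were detected in both libraries, or 63.8%, beside 42.9% of the nuclear protein-coding genes. A further 6 were detected in 1 library only and 19 in neither, 8 of which had 0 counts in both. The median over all 69 members was 5.77 rescaled TPM in replicate 1 and 6.08 in replicate 2, beside 0.642 and 0.392 over the nuclear protein-coding genes. Among those detected, the medians were 23.2 and 19.3 for members and 14.5 and 14.5 for all such genes. Of the 69 members, 14 (20.3%) ranked in the top 10.0% of nuclear protein-coding genes. Together the members held 0.402% and 0.379% of the nuclear protein-coding level, and the 6 highest held 74.6% and 74.2% of that.

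**Figure D1:**
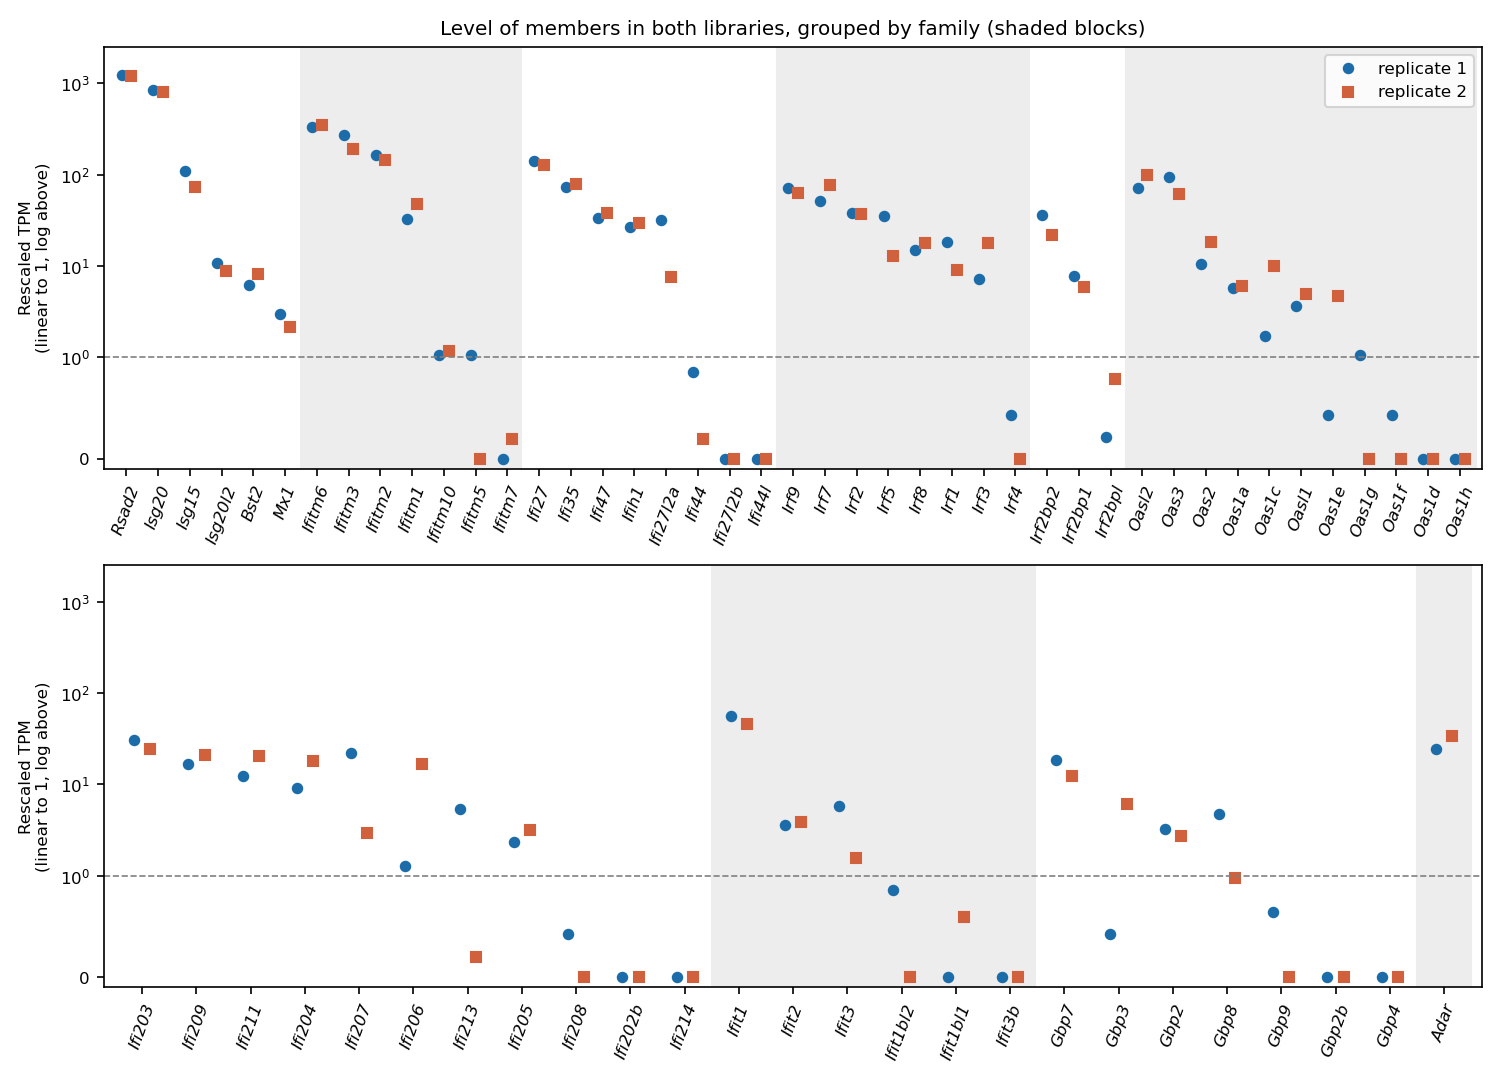
Rescaled TPM of the members, except 1 that was not detected and is not shown, in replicate 1 (circles) and replicate 2 (squares), grouped by family in blocks of alternating shade, on an axis that is linear to 1 and logarithmic above. The dashed line is the detection cut, and 44 members lie on or above it in both libraries, with Rsad2 highest at 1233 and 1196.

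**Figure D2:**
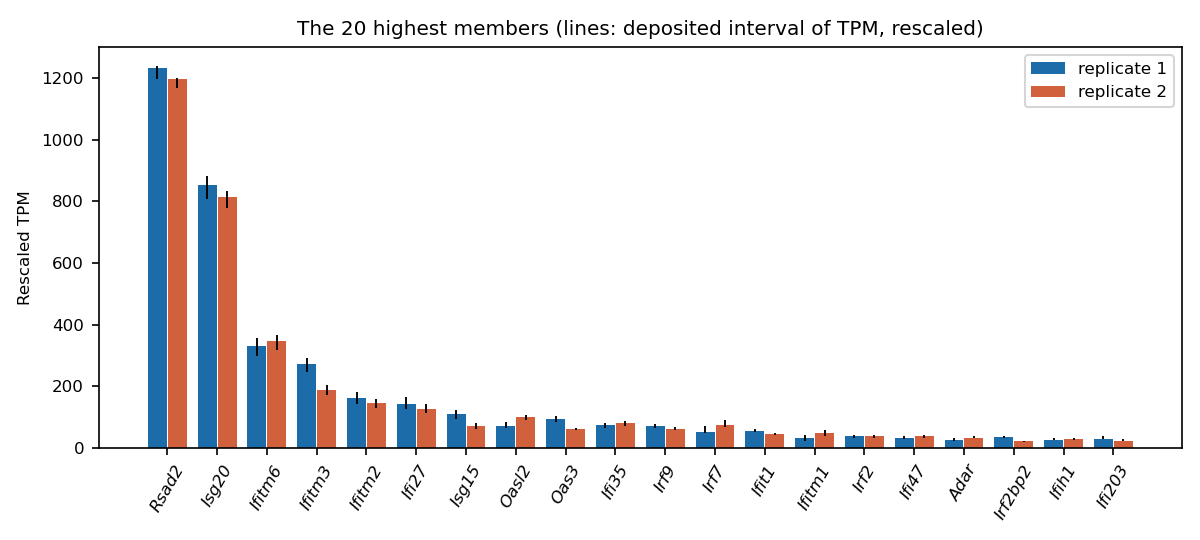
Rescaled TPM of the 20 members with the highest mean, as bars for replicate 1 and replicate 2, with lines for the interval deposited beside each value, which was estimated around the posterior mean. Rsad2 and Isg20 stand apart from Ifitm6, whose bars reach 331 and 346.

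No interferon ligand gave a read. All 20 listed ligand genes, which include Ifnb1, Ifng and the Ifna genes, had 0 counts in both libraries. By their lengths this allows up to between 0.831 and 2.09 rescaled TPM in replicate 1 and between 0.525 and 1.35 in replicate 2, so lower levels were not detectable at this depth.

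The receptors and their signalling chain were detected throughout. All 12 listed receptors, Janus kinases and STATs were detected, with a median of 43.7 rescaled TPM in replicate 1 and 48.8 in replicate 2. The type I receptor chains Ifnar2 and Ifnar1 had 160 and 129, and 83.8 and 91.8 rescaled TPM. Ifngr1, a chain of the interferon gamma receptor, had 100.3 and 96.1 rescaled TPM, and the kinase Jak1 had 104 and 86.7. Lowest were the lambda receptor chain Ifnlr1, at 3.85 and 2.75 rescaled TPM, and the kinase Tyk2, at 2.78 and 2.75. Stat2, a partner of IRF9, had 8.13 and 12.9 rescaled TPM.

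Of the 6 listed brakes on this signalling, 4 were detected, with medians of 15.2 and 11.8 rescaled TPM. The phosphatase Ptpn6 led at 61.6 and 59.0 rescaled TPM, followed by the SUMO ligase Pias1 at 21.6 and 31.2, Ptpn2 at 29.3 and 15.1 and Ptpn11 at 8.77 and 8.43. Socs1 and Socs3, feedback inhibitors of the kinases, held 7 and 0 counts, and 3 and 3 counts. Both were below the detection cut in at least 1 library.

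Of the 9 IRF genes, 7 were detected in both libraries, and they summed to 237 rescaled TPM in replicate 1 and 234 in replicate 2. Irf9, which joins STAT proteins to DNA, had 71.4 and 62.8 rescaled TPM from 586 and 866 counts. Irf7, which drives interferon alpha genes after infection, had 51.3 and 76.1 from 244 and 386 counts. Their means, 67.1 ± 6.13 and 63.7 ± 17.5 (SD, n = 2), do not differ beyond their spread. Irf2, known as an antagonist of IRF1 at shared sites, followed at 38.3 and 37.5 rescaled TPM.

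The middle of the IRF order was less certain. Irf5, a factor downstream of Toll-like receptors, had 35.5 rescaled TPM in replicate 1 and 12.7 in replicate 2. Irf8, needed for monocytes and dendritic cells, had 15.0 and 17.8, Irf1 had 18.2 and 9.02, and Irf3, which TBK1 activates when sensors meet viral nucleic acid, had 7.27 and 17.7. The mean levels of these genes were 24.1 ± 16.1, 16.4 ± 2.03, 13.6 ± 6.47 and 12.5 ± 7.34 rescaled TPM, so no neighbours in this order differ beyond their spread. Irf4, a lymphoid factor, held 6 and 1 counts and was not detected. The IRF2-binding proteins are corepressors: Irf2bp2 had 35.9 and 21.8 rescaled TPM, Irf2bp1 7.70 and 5.88, and Irf2bpl 0.214 and 0.784.

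For Irf5 the level per length and the counts gave unlike pictures. Its counts were 89.4 in replicate 1 and 134 in replicate 2, a log2 ratio of 0.05 (replicate 1 over replicate 2) after scaling. In replicate 1, 73.1% of its TPM was assigned to the transcript Irf5-206 of 403 bases, against 0% in replicate 2. The coding transcript Irf5-201 had 9.62 rescaled TPM in replicate 1 and 12.0 in replicate 2. A short transcript yields more TPM per read, and Irf5-206 held 23.4 of the counts in replicate 1. Irf7 and Irf3 also differed less in counts than in level, with log2 ratios of -0.02 and -0.27 after scaling. Their deposited lengths were 1545 bases in replicate 1 and 1088 in replicate 2 for Irf7, and 1474 and 810 for Irf3.

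Sensors of foreign nucleic acid were detected at moderate levels. Among members, Ifih1, which encodes the double-stranded RNA sensor MDA5 (chr2:62595798-62646255), had 26.9 and 29.4 rescaled TPM from 401 and 647 counts. Of 17 listed sensors and adaptors, 16 were detected, with medians of 11.3 and 12.0 rescaled TPM. The kinase Tbk1 (44.5 and 46.1), the Toll-like receptor chaperone Unc93b1 (25.7 and 41.6), the adaptor Mavs (33.6 and 25.1) and the DNA sensor Aim2 (21.0 and 28.2) were highest by the mean of both libraries, with Tlr7 (11.3 and 37.5) within the spread of Aim2. Traf3 was lowest of those detected at 3.21 and 3.33, and Tlr3 had 0 counts.

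**Figure D3:**
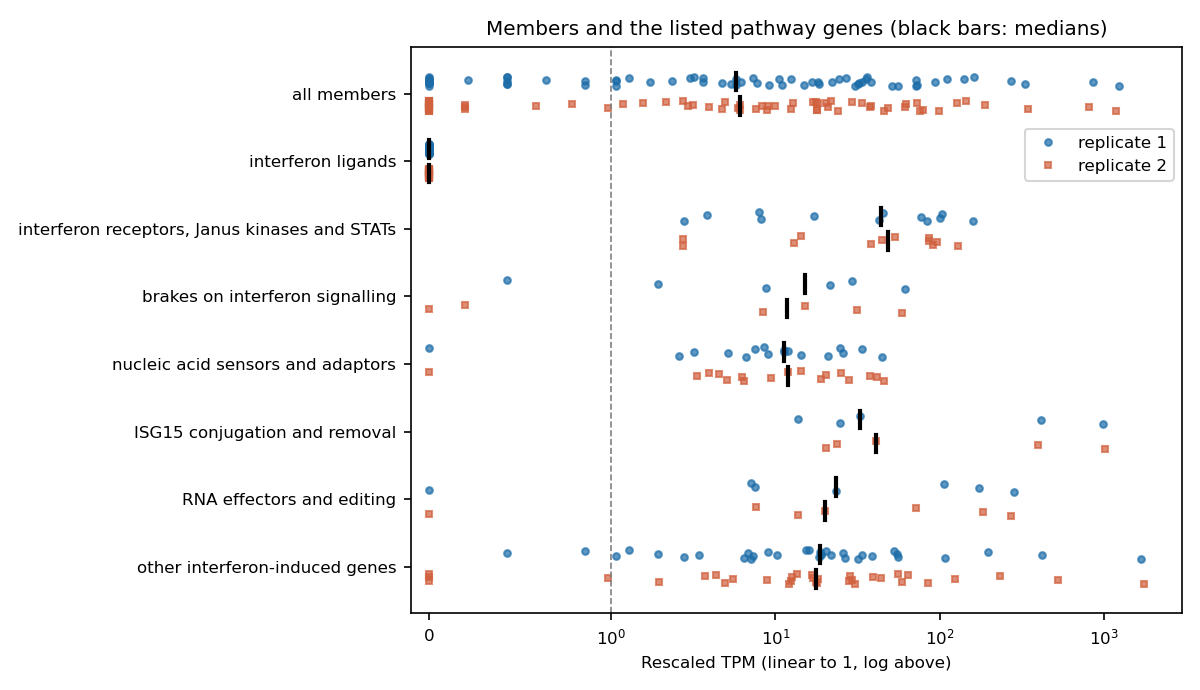
Rescaled TPM of all 69 members and of the genes of 7 pathway lists, with circles for replicate 1, squares for replicate 2 and black bars for medians, on an axis that is linear to 1 and logarithmic above. The 20 interferon ligands lie at 0, while all 12 genes of the receptor list lie above the dashed detection cut.

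The oligoadenylate synthetases make a short-lived messenger that starts the breakdown of RNA when they meet double-stranded RNA. Of the 11 Oas members, 6 were detected, and the family summed to 190 rescaled TPM in replicate 1 and 205 in replicate 2. Oas3 had 94.3 and 61.8 rescaled TPM from 1221 and 1438 counts, and Oasl2, a like protein, had 72.3 and 98.8 from 402 and 774. Their order differed between the libraries. Oas2 followed at 10.5 and 18.2, and Oas1a at 5.77 and 6.08 rescaled TPM. Oas1d and Oas1h had 0 counts. The Oas1 genes are near copies on chromosome 5, so reads may be split among them. Only Oas1a (33.98) and Oas1g (6.02) of the Oas1 members had counts that were not whole, both in replicate 1.

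Of 7 listed RNA effectors and editing genes, 6 were detected, with medians of 23.5 and 20.0. The antiviral zinc finger protein gene Zc3hav1 led at 285 and 272, and Samhd1, which hydrolyses deoxynucleotides, had 107 and 71.8. Eif2ak2, the double-stranded RNA kinase that halts translation, had 23.5 and 13.7, and its activator Prkra 7.06 and 7.65. Adarb1, another editing enzyme, had 0 counts.

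Adar, which encodes the adenosine-to-inosine editing enzyme ADAR1 (chr3:89715022-89753446), had 24.4 rescaled TPM in replicate 1 and 33.5 in replicate 2 (29.0 ± 6.47, SD, n = 2), from 397 and 801 counts. Its transcripts were assigned unlike shares. Adar-202, which starts at the 5′ end of the gene and encodes 930 residues, held 47.1% of its TPM in replicate 1 and 0% in replicate 2. Adar-203, which starts at position 89730748 and encodes 1178 residues, the length class of the interferon-inducible form, held 35.2% and 65.9%. The remainder went to the retained-intron transcript Adar-208 (17.7% and 18.2%), to Adar-201 (0% and 13.3%) and, in replicate 2, to Adar-205 (2.58%). Adar-201 starts where Adar-203 does and encodes 1152 residues, so the long forms held a larger share in replicate 2 than Adar-203 alone.

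Isg15, a ubiquitin-like protein that is linked to other proteins, had 111 rescaled TPM in replicate 1 and 72.4 in replicate 2 (91.5 ± 27.0, SD, n = 2), from 231 and 237 counts. All 5 listed genes of its conjugation were detected, with medians of 32.9 and 40.8 rescaled TPM. Ube2l6, its conjugating enzyme, stood at 997 and 1020 rescaled TPM and Uba7, its activating enzyme, at 412 and 400, both above Isg15 itself in each library. The ligase Herc6 had 32.9 and 40.8, and Trim25 24.8 and 20.2. The protease Usp18, which removes ISG15, had 13.7 and 23.7.

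Of the 6 members in the group of Isg genes, Rsad2, Mx1 and Bst2, all were detected. Below the 3 named above stood Isg20l2, a nucleolar nuclease, at 10.9 and 8.83 rescaled TPM. Bst2, the tether that holds budding viruses at the cell surface, had 6.20 and 8.24 from 13 and 27 counts, and Mx1, an antiviral GTPase, had 2.99 and 2.16 from 25 and 29.

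The Ifitm genes encode membrane proteins that keep viruses from fusing with the cell. Of the 7 members 5 were detected, and the family held 20.0% of the members' summed level in replicate 1 and 19.2% in replicate 2. Ifitm6 led at 331 and 346 rescaled TPM (453 and 729 counts), followed by Ifitm3 at 273 and 189 (499 and 540 counts), Ifitm2 at 163 and 145 (270 and 372 counts) and Ifitm1 at 32.5 and 48.2 (49 and 118 counts). In both libraries these kept 1 order. Ifitm10, at 1.07 and 1.18 rescaled TPM from 4 and 4 counts, was just inside the detection cut. Ifitm5, a gene of bone-forming cells, had 2 and 0 counts and Ifitm7 had 0 and 1.

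The Ifit genes, which encode proteins that bind foreign RNA ends, were uneven. Ifit1 (chr19:34640871-34650009) had 56.0 and 45.9 rescaled TPM from 475 and 622 counts, while Ifit2 had 3.64 and 3.92 and Ifit3 5.77 and 1.57. Ifit1 thus exceeded its family neighbours in each library. Ifit1bl2 had 9.05 and 1 counts, Ifit1bl1 0 and 7, and Ifit3b 0 in both.

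Of the 8 other Ifi members 5 were detected. Ifi27, a small membrane protein, had 141 and 127 rescaled TPM from 240 and 302 counts. Ifi35, a leucine zipper protein, had 73.1 and 79.6, and Ifi47, an immunity-related GTPase, 33.6 and 38.2. Ifi27l2a had 31.7 and 7.65 from 35 and 13 counts, and Ifi44 had 0.855 and 0.196. Ifi27l2b and Ifi44l had 0 counts.

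Of 7 guanylate-binding proteins, GTPases that attack the membranes around intracellular pathogens, 2 were detected in both libraries. Gbp7 had 18.4 and 12.4 rescaled TPM from 336 and 360 counts, and Gbp2 had 3.21 and 2.75 from 26 and 34. Gbp3 had 0.428 and 6.08 and Gbp8 had 4.70 and 0.981, each detected in 1 library. Gbp9 held 8 and 1 counts and Gbp4 0 in both. Gbp2b held 0 in both on its own transcript, and the 1 count that its row held in replicate 2 was assigned to Gbp5-201, a transcript that the later annotation places in another gene. The spans of Gbp4, Gbp8 and Gbp9 overlap on chromosome 5, and all 3 had whole counts in both libraries.

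The Ifi200 genes, a cluster on chromosome 1 between 173468485 and 174031810, encode proteins with HIN domains that bind DNA. Of 11 members 7 were detected. Ifi203 had 30.6 and 24.1 rescaled TPM, Ifi209 16.7 and 21.0, Ifi211 12.4 and 20.4, and Ifi204 9.20 and 17.8. The family summed to 100.3 rescaled TPM in replicate 1 and 106 in replicate 2, so the total moved little. Its individual members moved more.

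Ifi207 (ENSMUSG00000073490, chr1:173723427-173741747, minus strand) had 22.0 rescaled TPM in replicate 1 and 2.94 in replicate 2, from 248 and 54 counts. After scaling of the counts this was 6.92-fold higher in replicate 1, a log2 ratio of 2.79. Other members of the cluster differed the other way: Ifi206 had 1.28 and 16.9 rescaled TPM from 8.39 and 93 counts, a log2 ratio of -2.67, and Ifi204 had 65.5 and 203 counts, a log2 ratio of -0.96. In replicate 2, 52 counts and 77.3% of the TPM of Ifi206 were assigned to a transcript of 890 bases that the later annotation does not hold. The annotated transcript Ifi206-201 had 1.28 and 3.92 rescaled TPM. Ifi213 had 29.9 counts in replicate 1 and 2 in replicate 2. Ifi205 had 2.35 and 3.14 rescaled TPM and Ifi208 had 4.74 and 0 counts, and Ifi202b and Ifi214 had 0 in both. These genes are near copies, and 8 of the 11 had an expected count that was not whole in at least 1 library, which happens when reads are shared out among places. The split within the cluster may therefore be uncertain, and the part this has in the difference of Ifi207 was not tested. The count of Ifi207 itself was 248.14 in replicate 1 and whole in replicate 2. Its deposited intervals, 19.3 to 24.7 rescaled TPM in replicate 1 and 2.30 to 3.92 in replicate 2, did not overlap. This was not particular to Ifi207. The intervals of Oas3 (85.8 to 102 and 57.5 to 66.1) and Gbp7 (16.4 to 20.3 and 11.1 to 13.6) did not overlap either, at log2 ratios of 0.41 and 0.54. Each interval was estimated within a single library, and the share of genes without overlap was not counted.

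Between the libraries, most members differed little once depth allowed it to be seen. Of 29 members with a mean of at least 100 counts, 2 (Ifi207 and Irf1) were over 2 times higher in replicate 1, where 2.69% of 5805 genes were, and 0 were over 2 times higher in replicate 2, where 4.69% were. Irf1 lay just past the fold, with 119 and 90 counts and a log2 ratio of 1.03, and lay inside it with DESeq2 size factors. Ifi204, at -0.96, lay just inside it. At a mean of at least 20 counts, 5 of 45 members were higher in replicate 1 (9.4% of all genes) and 4 were higher in replicate 2 (11.5%). Those added were Gbp8, Ifit3 and Ifi27l2a in replicate 1, and Gbp3 (4 and 80 counts), Ifi206, Oas1c (13 and 115) and Oas1e (2 and 39) in replicate 2. At this lower minimum the members' shares lie near those of all genes.

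For the 48 members with at least 20 summed counts, the median log2 ratio was 0.00 and the median size of the log2 ratio was 0.37, beside -0.01 and 0.49 over 11414 genes. The size fell with depth. It was 0.61 for 19 members with a mean of 10 to 100 counts (0.89 over all genes), 0.31 for 26 members of 100 to 1000 counts (0.35) and 0.05 for the 3 members above 1000 counts (0.13). These 3 were Rsad2, Isg20 and Oas3, at log2 ratios of 0.01, 0.05 and 0.41.

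**Figure D4:**
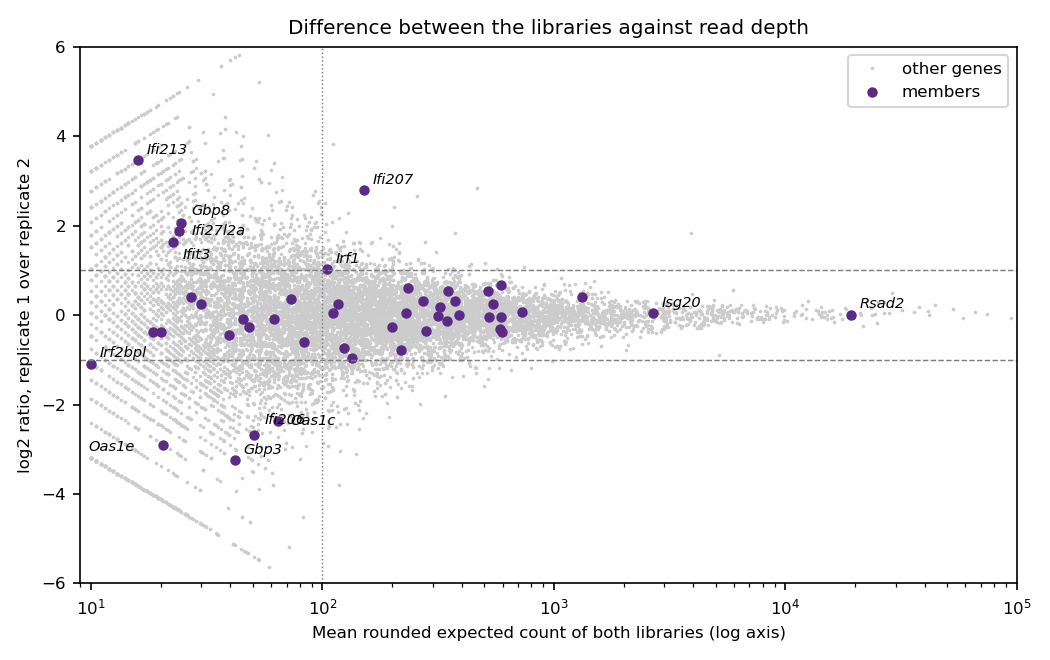
Log2 ratio of replicate 1 over replicate 2 in scaled counts against the mean rounded expected count on a log axis, for genes with at least 20 summed counts. Dark points are members and small grey points other genes, with dashed lines at a fold of 2 and a dotted line at a mean of 100 counts. Right of that line Ifi207 (2.79) and Irf1 (1.03) lie past a dashed line.

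Transcript shares added detail that gene levels hide. Of the detected members 30 had several annotated transcripts, and the leading transcript differed between the libraries in 8 of them (Adar, Ifi203, Ifi206, Ifi47, Ifitm10, Irf3, Irf5 and Oasl1), where it did in 34.0% of 6876 detected genes. With a mean of at least 100 counts it differed in 4 of 20 members, where it did in 28.4% of 4219 genes. Rsad2 was read almost wholly as Rsad2-201, with 98.1% and 97.7% of its TPM, while Isg20 was split over 4 transcripts. Isg20-203 held 60.4% and 50.3%, the retained-intron transcript Isg20-205 held 19.9% and 25.8%, Isg20-204 10.5% and 13.9%, and Isg20-201 9.24% and 10.0%. Oas3-201 led its gene at 80.7% and 93.4%, and Irf9-205 at 71.5% and 74.1%.

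In 3 of the 30 members the leading transcript was of a non-coding type in both libraries, where 11.5% of the 6876 genes had such a leader. The retained-intron transcript Ifi27-209 held 63.4% and 66.2% of Ifi27, and Ifi35-203 and Oasl2-205, both typed as targets of nonsense-mediated decay, held 49.0% and 52.7%, and 62.0% and 55.3%. The level of a gene thus need not equal the level of its coding transcripts. For Oasl2 the coding transcript Oasl2-201 had 7.27 and 6.08 rescaled TPM, where the gene had 72.3 and 98.8. Ifi47 showed the largest exchange of those plotted: Ifi47-202 held 91.4% in replicate 1 and 3.74% in replicate 2, while Ifi47-201 held 8.57% and 76.1%, and both encode 420 residues. Irf7-204 led its gene in both libraries, at 33.9% and 66.8%.

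**Figure D5:**
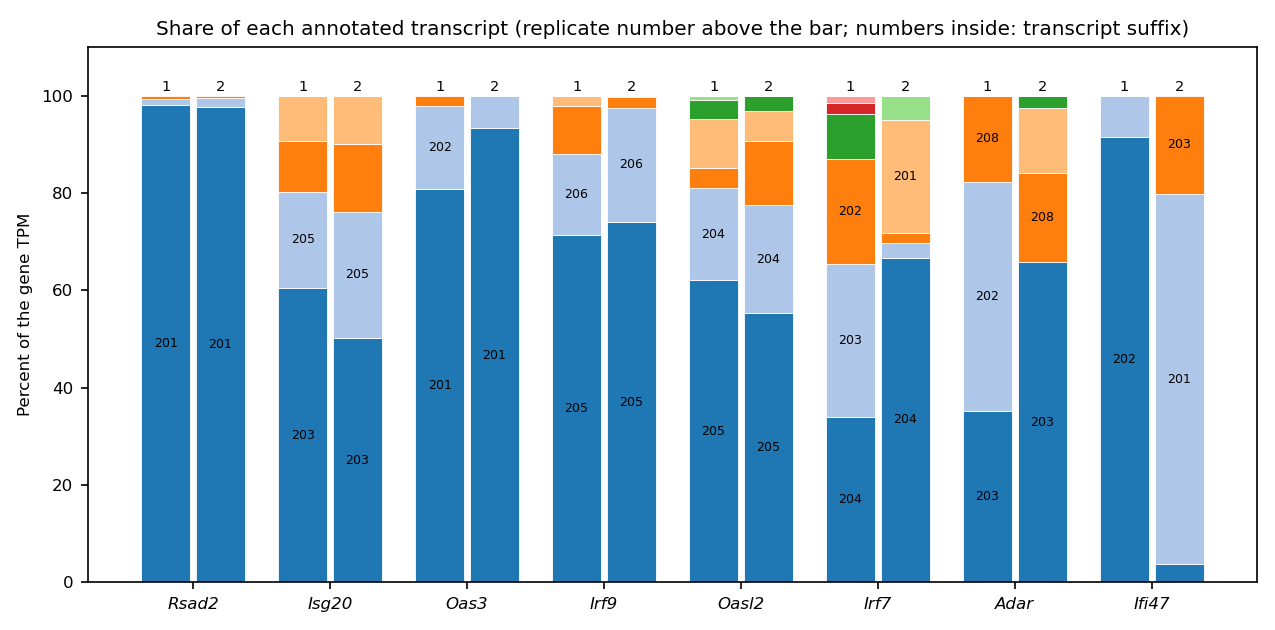
Percent of the gene TPM carried by each annotated transcript of 8 members chosen after their values were seen, with replicate 1 left of replicate 2 and the transcript's suffix inside the larger parts. Colours follow the order of the shares within a gene and are not shared across genes. The bars of Rsad2 are nearly 1 colour, while those of Adar and Ifi47 differ between the libraries.

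Of the 69 members, 57 had a RefSeq window, and the ISRE core was present in 26 of them, or 45.6%, beside 2.98% of all 32851 windows. The motif bound by STAT proteins after interferon gamma, searched as TTC, any 3 bases and GAA, was in 9 (15.8%, beside 7.02% of all windows), and AGATAA was in 4 (7.02%, beside 9.99%). By family the ISRE core was in 4 of 4 Gbp windows, 8 of 10 Ifi200 windows and 5 of 6 Ifit windows, against 1 of 8 IRF windows, 1 of 7 Ifitm windows and 0 of 5 windows of other Ifi genes. It was in 17 of 39 windows of detected members and 9 of 18 windows of members not detected. These matches are not all separate. The windows of Ifit1 and Ifit1bl2 overlap on opposite strands and hold the same cores, and the stretches around the core were identical in Ifi208 and Ifi213. The median level was 5.89 rescaled TPM (range 0 to 1215) for members with a match and 13.6 (0 to 834) for those without. In 4 members, Irf5, Irf7, Ifi213 and Oas1f, the window lay over 1000 bases from the start of the leading transcript of replicate 1. For Adar the window lay in front of Adar-202, so the bases before Adar-203, which led in replicate 2, were not searched.

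The letters around the ISRE core nearest the start are shown for 8 members of different families and levels, chosen after their values were seen, 40 bases each on the gene's strand, with the core in capitals. A core that reads TTTC, any 2 bases and TTTC lies on the opposite strand.

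Ifitm2, chr7:140955983-140956022: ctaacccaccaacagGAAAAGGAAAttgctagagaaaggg
Isg15, chr4:156200860-156200899: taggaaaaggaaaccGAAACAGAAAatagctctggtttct
Oas3, chr5:120777710-120777749: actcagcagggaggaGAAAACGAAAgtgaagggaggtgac
Ifit1, chr19:34640789-34640828: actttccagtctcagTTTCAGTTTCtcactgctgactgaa
Gbp7, chr3:142530268-142530307: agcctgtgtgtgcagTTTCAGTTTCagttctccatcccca
Ifi207, chr1:173741826-173741865: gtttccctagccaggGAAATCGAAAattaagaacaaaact
Ifit3, chr19:34583392-34583431: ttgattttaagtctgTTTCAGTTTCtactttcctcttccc
Ifit3b, chr19:34607788-34607827: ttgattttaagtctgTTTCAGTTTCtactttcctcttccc

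The Isg15 window held 3 overlapping matches, of which that nearest the start is marked. The stretches of Ifit3 and Ifit3b were identical, while Ifit3 had 31 and 14 counts and Ifit3b had 0 in both libraries. The core of Ifi207, GAAATCGAAA, was that of 6 of the 8 Ifi200 members with a match (Ifi203, Ifi206, Ifi207, Ifi208, Ifi213 and Ifi214).

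The 33 other interferon-induced genes that were listed included 28 detected, with medians of 18.6 rescaled TPM in replicate 1 and 17.7 in replicate 2. B2m, the light chain of MHC class I, led at 1681 and 1760, above Rsad2. Ly6e, a surface protein that blocks coronavirus entry, had 423 and 523, and Sp100, a nuclear body protein, 197 and 233. Lowest were the immunity-related GTPase Iigp1, at 11 and 1 counts, and Tgtp1, at 4.77 and 0.

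The markers of other cells lay at these levels beside the members. Megakaryocyte markers were detected in 5 of 5 and summed to 85.5 and 111 rescaled TPM, led by Itga2b (24.2 and 58.2) and Pf4 (25.7 and 18.6), with Gp9 lowest (8.77 and 6.08). T and NK cell markers were detected in 3 of 6 and summed to 120 and 137, led by Nkg7 (108 and 126) and Cd4 (7.06 and 6.47), with Cd3d and Cd8a at 0. B lineage markers were detected in 2 of 6 and summed to 13.7 and 20.4, led by Cd79b (10.9 and 16.5) and Blnk (1.71 and 2.94), with Vpreb1 at 0. Of the dendritic cell markers, Ccr9 (0.855 and 3.33) and Flt3 (0.855 and 1.96) were highest and Cox6a2 had 0 counts.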

How the data were processed

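Per the deposited read-me, both libraries were quantified on mm10 with GENCODE M4, and no source used here names the aligner or quantifier. The authors deposited expected counts, with multi-mapping reads shared among features, TPM scaled over all rows, and FPKM, used here only as an alternative. They also deposited the posterior mean of TPM, a score used as an alternative, with interval bounds, and the percent of each gene's TPM per transcript, per the file headers.

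Symbols, types and coordinates came from GENCODE M21, matched by Ensembl identifier for 42462 of 43346 rows; the other 884 rows held 0.0126% and 0.0124% of the counts. TPM was rescaled to the nuclear protein-coding genes, in steps of 0.214 and 0.196 at the last deposited digit. Expected counts were rounded and scaled with edgeR 4.0.16 (TMM factors 0.962 and 1.04, prior count 2), with DESeq2 1.42.0 size factors as an alternative. With 1 group no p-value was computed, and values are mean ± SD of 2 libraries. A chi-square of the rounded counts of 11414 genes (557497 on 11413 degrees of freedom) served only to check that the libraries are not 1 library deposited in duplicate, and takes reads as independent. Reads without molecular identifiers are not independent, so floors cover counting error only. Promoter windows were the 250 bases before the start, from RefSeq on GRCm38.p6. For a gene with several windows the one nearest the start of the leading transcript of replicate 1 was used.

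The members and lists were chosen with earlier results of these data known. Named were all Irf genes, Adar and Ifi207, up to 4 highest and 2 lowest members of other families, members over 2 times apart with at least 100 counts, those near a threshold, and the highest and lowest genes of each list. Others were chosen after their values were seen. Some genes that this rule names are left out and not reported here.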

Additional observations from a re-analysis of the deposited data

How the results depend on the processing

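The number of detected members was 44 and became 20 at a deposited TPM of 1 without rescaling, and with either library alone it was 46 to 48. The median member level, 5.93 rescaled TPM, became 7.29 with the posterior mean, 10.5 without the adult globin genes in the total and 18.1 over members with at least 20 summed counts, and was 5.77 to 6.08 with either library alone. The count of members over 2 times higher in replicate 1 was 2, and became 1 with DESeq2 size factors, which left out Irf1, 5 at a mean of at least 20 counts and 13 with no filter. In replicate 2 the count was 0, and became 4 and 6 under the last 2 of these. With the posterior mean, the list medians became 0.506 for ligands (against 0), 12.7 for sensors, 1737 for erythroid, 1.06 for B lineage, 2.21 for T and NK cell and 19.2 for megakaryocyte markers. The cause was not tested. Over all alternatives, 15 of the summary values moved and 61 did not, and among single members 22 moved and 185 did not. A level counted as moved when it left the mean of the libraries by more than their SD. Either library alone cannot move a level by this rule, so those alternatives say nothing of its stability. Counts were judged by a fold limit instead, and the median log2 ratio by the median size of the members' ratios. Under the fold limit, 3 members higher in replicate 1 by rescaled TPM against 2 did not count as moved. Nor did the same leading transcript in 16 of 20 members with at least 100 counts, against 22 of 30. The 22 values of single members that moved all did so with the posterior mean. No paired analysis was possible because there is only 1 group. Members under 100 counts limit the precision, as their ratios spread most.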

Other observations

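Several interferon-related genes fall outside the members because the annotation types them as other than protein coding. Ifi30, typed as a processed transcript and known as a thiol reductase of antigen processing, had 56.2 rescaled TPM in replicate 1 and 59.0 in replicate 2, from 160 and 265 counts. Oas1b, a polymorphic pseudogene that lies within the Oas cluster on chromosome 5, had 47.7 and 48.6 rescaled TPM from 255 and 406 counts, above Oas1a at 5.77 and 6.08. Mx2 held 6 and 0 counts and Gbp11 held 0 in both. The pseudogene Ifi203-ps, within the Ifi200 cluster, had 32.2 and 11.2 expected counts, which were not whole.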
